A study of Mus musculus with 8 samples.

Results

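A set of 9 genes of the CC chemokine system were followed in mouse lumbar dorsal root ganglia after ligation of a spinal nerve: the ligands Ccl2, Ccl7, Ccl12, Ccl8, Ccl6, Ccl9, Ccl3 and Ccl4, and the receptor Ccr2. They were taken by symbol from a table of read counts, 9 of its 53801 genes. All 9 were in the table, and 7 passed the filter on low counts of the injury test. Ccl3 and Ccl4 did not, and are given as reads.

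Libraries came from injured-side ganglia at days 1, 3 and 7 after the left L4 spinal nerve was tied, and from the uninjured (contralateral) ganglia of the same mice, with 1 library per side and day. Mice labelled no injury made up the remaining pool, sequenced as 1 left-side and 1 right-side library, which brings the total to 8. Per the labels every mouse was a male C57BL/6J of unstated age, and every library joined ganglia L3 to L5 of 3 mice. The titles of the libraries labelled no injury add the tag WT, which the titles of the operated libraries lack. An injured-side library therefore also holds ganglia whose own nerve was not tied. The surgery and its anaesthesia were shared by both sides of an operated mouse. The protocol describes sham surgery too, and whether the mice labelled no injury had it is not given.

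CC chemokines are small secreted proteins that draw leukocytes along a gradient by binding receptors coupled to G proteins. Ccl2, Ccl7 and Ccl12 belong to the monocyte chemoattractant group and act through Ccr2, the receptor that inflammatory monocytes need to leave the marrow and enter tissue. Ccl8 belongs to the same group by sequence, and the mouse protein is known to act through Ccr8. Ccl6 and Ccl9 are rodent ligands of Ccr1 made largely by myeloid cells, and Ccl3 and Ccl4 are the macrophage inflammatory proteins. In the dorsal root ganglion, injured sensory neurons are a known source of Ccl2, and macrophages gather around them.

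Depth was even, at 20488115 to 21652688 reads per library, so values are given as CPM, the count scaled to an equal total per library. A count of 0 allows up to 3 reads, or 0.139 to 0.146 CPM, and such limits cover counting error only. A pair of features set libraries apart. The operated libraries had at most 3 reads of Xist and 13.1 to 16.7 CPM of Y-linked Kdm5d, against 4931 and 4129 Xist reads and 0 Kdm5d reads in the pool labelled no injury, which goes against its labelled sex. The 14 neutrophil and marrow genes summed to 35.4 to 109 CPM in the injured libraries, against 585 CPM in the uninjured day 1 library, 58.3 and 93.9 CPM on the uninjured side at days 3 and 7, and 303 and 82.1 CPM in the left and right libraries without injury. The 12 sensory neuron markers were present in every library, at summed levels of 11950 to 12880 CPM on the injured side, 12730 to 13380 CPM on the uninjured side and 12510 to 12850 CPM without injury. Atf3, a transcription factor that marks injured neurons, had 464, 629 and 618 CPM in injured ganglia (days 1, 3 and 7), with 126, 167 and 110 CPM on the uninjured side and 10.9 and 11.0 CPM without injury. The side called uninjured was thus itself above the pool without injury for this marker.

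The ligands lie in clusters on mouse chromosome 11, and the receptor on chromosome 9. On GRCm38 the monocyte chemoattractant genes run in 1 direction: Ccl2 at chr11:82035571-82037453, Ccl7 at chr11:82045712-82047525, Ccl12 at chr11:82101845-82103400 and Ccl8 at chr11:82115185-82116799, all on the plus strand. Ccl9 at chr11:83572919-83578636 and Ccl6 at chr11:83587882-83593087 are neighbours on the minus strand, followed by Ccl3 at chr11:83647844-83649355 on the minus strand and Ccl4 at chr11:83662584-83664683 on the plus strand. Ccr2 lies at chr9:124101950-124113557 on the plus strand. No member shared an exon base with another annotated gene. The span of Ccl2 overlaps that of Gm17268, and the span of Ccl6 that of E230016K23Rik, each on the opposite strand.

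Promoter sequences were available for 6 of the 9 genes (Ccl12, Ccl8, Ccl9, Ccl6, Ccl3 and Ccr2) and not for Ccl2, Ccl7 and Ccl4. Of the 6, 4 are shown because they form 2 aligned pairs of neighbouring genes. Each runs from 250 bases before the gene's start to 50 bases from it, 5′ to 3′ on the gene's strand (RefSeq, GRCm38.p6). Capitals mark the best local alignment of each pair, Ccl9 with Ccl6 and Ccl12 with Ccl8. The windows are chr11:83578587-83578886 for Ccl9, chr11:83593038-83593337 for Ccl6, chr11:82101595-82101894 for Ccl12 and chr11:82114935-82115234 for Ccl8.
Ccl9: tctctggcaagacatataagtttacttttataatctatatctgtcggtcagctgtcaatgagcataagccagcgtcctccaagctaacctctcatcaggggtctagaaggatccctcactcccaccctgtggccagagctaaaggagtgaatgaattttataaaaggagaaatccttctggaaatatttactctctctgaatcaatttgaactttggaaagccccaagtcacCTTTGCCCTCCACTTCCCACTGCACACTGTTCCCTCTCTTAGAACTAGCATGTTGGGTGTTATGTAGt
Ccl6: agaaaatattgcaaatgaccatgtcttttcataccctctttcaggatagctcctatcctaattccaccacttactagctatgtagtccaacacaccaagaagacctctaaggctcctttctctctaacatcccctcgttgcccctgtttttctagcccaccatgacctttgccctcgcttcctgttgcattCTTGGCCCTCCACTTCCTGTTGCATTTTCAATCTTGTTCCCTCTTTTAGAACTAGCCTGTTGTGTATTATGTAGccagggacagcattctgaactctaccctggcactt
Ccl12: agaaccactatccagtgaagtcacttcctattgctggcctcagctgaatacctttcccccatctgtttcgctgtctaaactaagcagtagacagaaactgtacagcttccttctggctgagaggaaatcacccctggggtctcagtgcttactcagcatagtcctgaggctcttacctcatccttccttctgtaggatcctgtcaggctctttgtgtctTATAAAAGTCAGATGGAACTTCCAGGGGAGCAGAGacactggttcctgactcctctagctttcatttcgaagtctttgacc
Ccl8: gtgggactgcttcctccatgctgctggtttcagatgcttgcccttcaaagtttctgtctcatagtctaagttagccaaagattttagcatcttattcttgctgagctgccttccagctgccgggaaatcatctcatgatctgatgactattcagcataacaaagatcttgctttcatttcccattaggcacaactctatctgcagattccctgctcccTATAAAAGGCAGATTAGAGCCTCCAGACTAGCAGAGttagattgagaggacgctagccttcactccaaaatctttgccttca

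The Ccl9 and Ccl6 stretches, of 67 and 74 bases, held 59 identical bases with 8 mismatches, and they end near the end of the Ccl9 window. The Ccl12 and Ccl8 stretches, of 35 and 36 bases, held 28 identical bases and open with TATAAA. No other of the 13 pairs among the 6 promoters scored above 21, against 71 for Ccl9 with Ccl6 and 30 for Ccl12 with Ccl8. TATAAA on the gene's strand began 31 bases before the start in Ccl12, 32 in Ccl8 and 92 in Ccl9, and 8.28% of all promoters of this length held it. TGANTCA, the AP-1 motif read on both strands, was found in the Ccl9 promoter alone among the 6, as was the NF-kB consensus, also read on both strands. The promoters of Ccl2, Ccl7 and Ccl4 were not searched. Of all promoters, 7.79% held the AP-1 motif and 8.49% the NF-kB consensus. These matches describe letters and do not show that a factor binds.

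The first question was how the injured ganglia differ from the uninjured ganglia of the same mice. Of the 9 genes, 5 (Ccl7, Ccl8, Ccl2, Ccl9 and Ccl12) rose on the injured side by 2.58-fold to 4.60-fold, and none fell. Over all 16244 genes tested, 10.1% were called higher and 8.02% lower at an adjusted p under 0.05. Ccl6 and Ccr2 did not pass. The 3 operated pools were the replicates of injury, with both sides of a pool kept together in the fit. The error behind each p-value is therefore how the side difference varied over these pools, in which the days also differ. The left to right difference of the pool labelled no injury enters that error too. In whole ganglia, more cells of a type and more RNA per cell cannot be told apart.

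**Figure D1:**
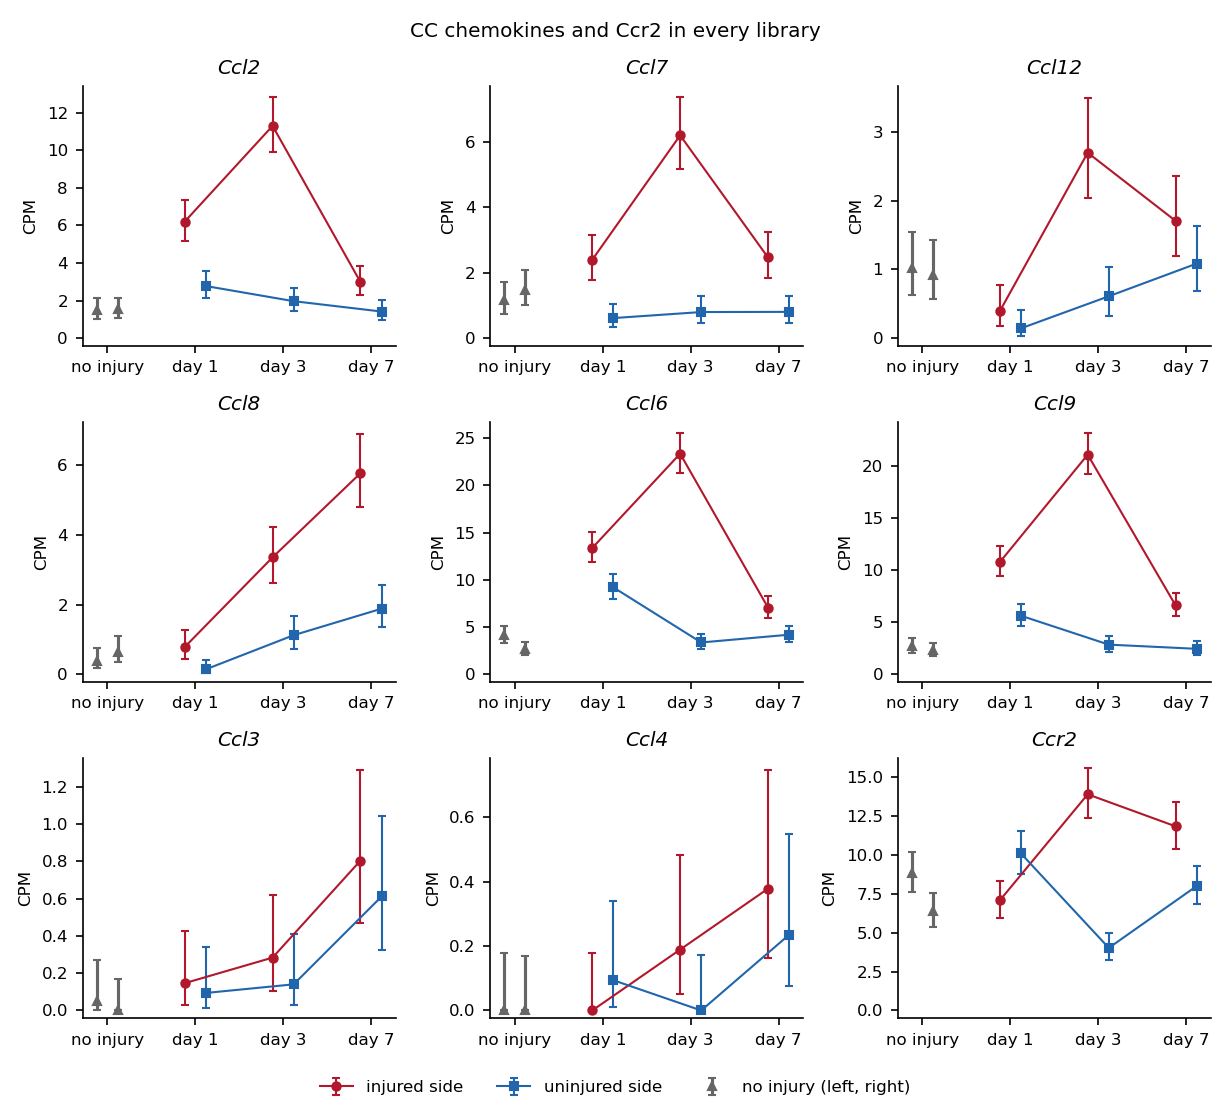
CPM of the 9 genes (vertical axes, from 0, a scale for each gene) in the libraries labelled no injury and at days 1, 3 and 7 (horizontal axis), with red circles for the injured side, blue squares for the uninjured side and grey triangles for the left and right libraries without injury. Bars are exact Poisson 95% intervals and cover counting error only. Ccl2, Ccl7, Ccl12, Ccl6 and Ccl9 peak on the injured side at day 3. Ccl8 is highest there at day 7, at 5.78 CPM, as are the scarce Ccl3 and Ccl4.

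Ccl2, the best known attractant of monocytes, had 6.20, 11.3 and 2.98 CPM in injured ganglia (days 1, 3 and 7), against 2.77, 1.96 and 1.41 CPM on the uninjured side and 1.49 and 1.52 CPM in the left and right libraries without injury. All 3 injured libraries lay above the other 5. The nearest neighbours across the groups, the injured side at day 7 and the uninjured side at day 1, had 63 and 59 reads and overlapping counting intervals. The mean was 6.83 ± 4.20 CPM on the injured side and 2.05 ± 0.68 CPM on the uninjured side (SD, n = 3 pools each). The fitted rise was 3.05-fold (log2 1.61 ± 0.28, SE; edgeR adjusted p = 0.0123).

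Ccl7, which binds several CC receptors including Ccr2, was the member with the highest fitted fold change. It had 2.39, 6.20 and 2.46 CPM in injured ganglia (days 1, 3 and 7), against 0.611, 0.795 and 0.800 CPM on the uninjured side and 1.16 and 1.48 CPM without injury. The injured libraries were again above all others. Unlike Ccl2, the uninjured side of all 3 operated pools was below both libraries without injury. The rise over the uninjured side was 4.60-fold (log2 2.20 ± 0.30, SE; edgeR adjusted p = 0.00474).

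Ccl12, a mouse ligand of Ccr2, had the fewest reads of the called ligands, 181 in all libraries together. It had 0.391, 2.70 and 1.70 CPM on the injured side, against 0.141, 0.608 and 1.08 CPM on the uninjured side and 1.01 and 0.924 CPM without injury. The groups overlapped, since the injured library of day 1, with 8 reads, was below both libraries without injury, which had 21 and 20 reads. The fitted rise was 2.58-fold (log2 1.36 ± 0.36, SE; edgeR adjusted p = 0.0380).

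On the injured side Ccl8 differed in its course from the other called ligands. It had 0.781, 3.36 and 5.78 CPM in injured ganglia (days 1, 3 and 7), against 0.141, 1.12 and 1.88 CPM on the uninjured side and 0.386 and 0.647 CPM without injury. On both sides the day 7 library was the highest and the day 1 library the lowest. Within every pool the injured side was the higher one, although the uninjured side at days 3 and 7 was above the injured side at day 1. The rise was 3.27-fold (log2 1.71 ± 0.28, SE; edgeR adjusted p = 0.00881).

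Ccl9 had 10.8, 21.1 and 6.63 CPM in injured ganglia (days 1, 3 and 7), against 5.64, 2.85 and 2.45 CPM on the uninjured side and 2.70 and 2.31 CPM without injury. All injured libraries were above all others, and the rise was 3.34-fold (log2 1.74 ± 0.36, SE; edgeR adjusted p = 0.0277). Ccl6, its neighbour, had 13.4, 23.4 and 7.05 CPM on the injured side, against 9.20, 3.37 and 4.19 CPM on the uninjured side and 4.15 and 2.68 CPM without injury. For Ccl6 the uninjured day 1 library was above the injured day 7 library, so the groups overlapped. The fitted difference was 2.51-fold and did not pass (log2 1.33 ± 0.49, SE; edgeR adjusted p = 0.130).

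Ccl3 and Ccl4 were near the limit of detection. Ccl3 had 3, 6 and 17 reads in injured ganglia (days 1, 3 and 7), against 2, 3 and 13 reads on the uninjured side and 1 and 0 reads without injury. Ccl4 had 0, 4 and 8 reads on the injured side, against 2, 0 and 5 reads on the uninjured side and 0 in both libraries without injury. For both genes the highest counts were on day 7, on either side, and a difference between sides was not detectable at this depth. Fitted with no filter, Ccl3 gave a log2 difference of 0.57 ± 0.55 (SE; edgeR adjusted p = 0.730).

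The receptor Ccr2 did not pass the test. It had 7.08, 13.9 and 11.8 CPM in injured ganglia (days 1, 3 and 7), against 10.1, 4.02 and 8.0 CPM on the uninjured side and 8.82 and 6.42 CPM without injury. At day 1 the injured side was the lower one, with 145 reads against 215 reads, and at days 3 and 7 it was the higher one. The mean was 10.9 ± 3.50 CPM on the injured side and 7.37 ± 3.09 CPM on the uninjured side (SD, n = 3 pools each). The fitted difference was log2 0.59 ± 0.43 (SE; edgeR adjusted p = 0.400).

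Between genes, levels were set side by side per kilobase of exon, as RPKM. On the injured side Ccl6 averaged 8.13 ± 4.58 RPKM, Ccl8 6.47 ± 4.89, Ccl2 6.00 ± 3.69, Ccl7 4.60 ± 2.72, Ccl9 4.22 ± 2.45 and Ccl12 2.97 ± 2.15 RPKM (SD, n = 3 pools). Neighbours in that order differed by less than their SD. Ccr2, with a long transcript, averaged 1.62 ± 0.52 RPKM there, and Ccl3 and Ccl4 were under 1 RPKM. On the uninjured side Ccl6 also led, at 3.11 ± 1.76 RPKM, and Ccl7 was at 0.918 ± 0.13 RPKM.

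Side differences within single pools showed where each fitted value came from. Each is the ratio of the injured to the uninjured CPM of 1 pool, with an exact binomial 95% interval that covers counting error only and no replicate. Ccl2 stood at 2.24-fold (1.63 to 3.10) on day 1, 5.76-fold (4.13 to 8.19) on day 3 and 2.11-fold (1.35 to 3.38) on day 7. For Ccl7 the ratios were 3.92-fold, 7.79-fold and 3.08-fold. Both were largest at day 3, and both were above 1 beyond counting error at every day.

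Ccl8 was 5.54-fold higher on day 1 (1.59 to 29.7, from 16 and 3 reads), 2.99-fold on day 3 and 3.07-fold on day 7. Its side ratio was therefore near 3 at the days with more reads, while its level kept climbing on both sides. Ccl12 had ratios of 2.77-fold (0.665 to 16.2), 4.43-fold (2.40 to 8.83) and 1.57-fold (0.908 to 2.78), of which only that of day 3 excluded 1.

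Ccl9 had ratios of 1.91-fold, 7.41-fold and 2.71-fold at days 1, 3 and 7, and Ccl6 of 1.45-fold (1.21 to 1.75), 6.94-fold (5.41 to 9.01) and 1.68-fold (1.29 to 2.22). The left to right ratio of Ccl6 in the pool labelled no injury was 1.55-fold (1.10 to 2.20). The day 1 and day 7 ratios of Ccl6 lie within the counting interval of that ratio between sides without injury. Ccr2 stood at 0.701 (0.564 to 0.869) on day 1, 3.46 (2.71 to 4.45) on day 3 and 1.48 (1.21 to 1.81) on day 7, with 1.37 (1.10 to 1.73) between the sides without injury.

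**Figure D2:**
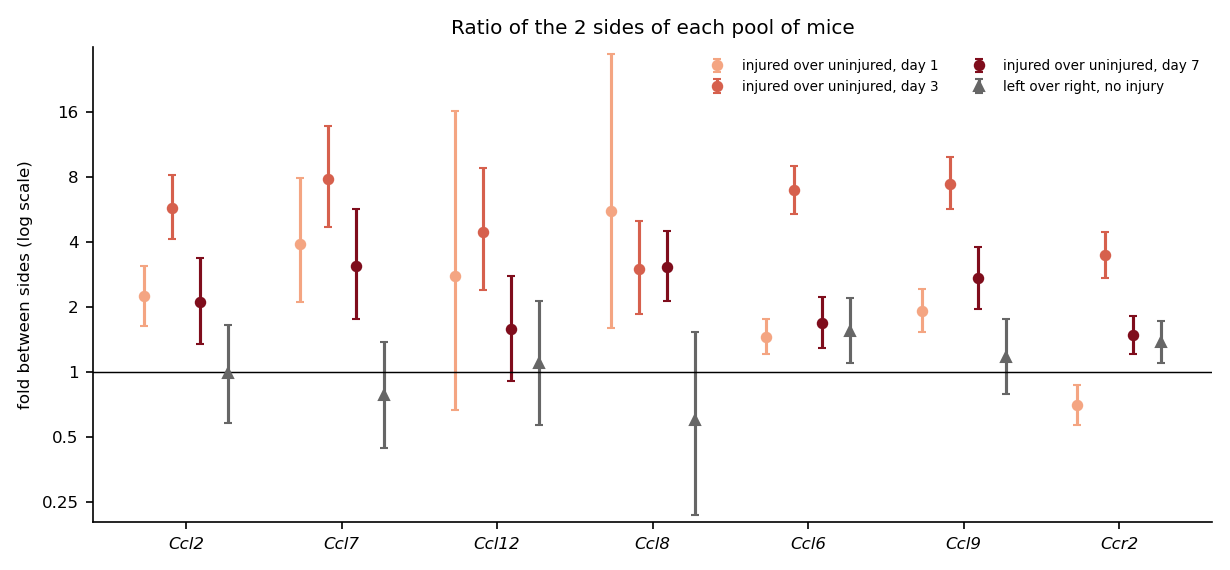
Ratio of the injured to the uninjured side within each operated pool, and of the left to the right side of the pool labelled no injury, for the 7 tested members (log axis; bars are exact binomial 95% intervals for counting error). The day 3 ratio is the largest for every gene but Ccl8, and Ccr2 at day 1 is the only ratio of an operated pool below 1.

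Among the monocyte chemoattractant genes the mixture of ligands differed by day. Of the reads of Ccl2, Ccl7, Ccl12 and Ccl8 together, Ccl2 made up 63.5%, 48.0% and 23.1% in injured ganglia (days 1, 3 and 7), against 75.6%, 43.8% and 27.3% on the uninjured side. Ccl8 made up 8.0%, 14.3% and 44.7% on the injured side, against 3.85%, 25% and 36.4% on the uninjured side. In the pool labelled no injury Ccl2 held 36.9% and 33.3%, and Ccl8 9.52% and 14.1%. On both sides of the operated mice Ccl2 had the largest share at day 1 and Ccl8 at day 7.

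The shares rest on 200, 498 and 273 reads on the injured side, 78, 96 and 110 reads on the uninjured side, and 84 and 99 reads without injury. The exact binomial 95% interval of the Ccl8 share was 38.7% to 50.8% at day 7 and 4.64% to 12.7% at day 1 on the injured side. In sum these 4 genes came to 9.76, 23.6 and 12.9 CPM in injured ganglia (days 1, 3 and 7), against 3.66, 4.49 and 5.18 CPM on the uninjured side. Each day is 1 pool of mice, so day and pool cannot be told apart.

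**Figure D3:**
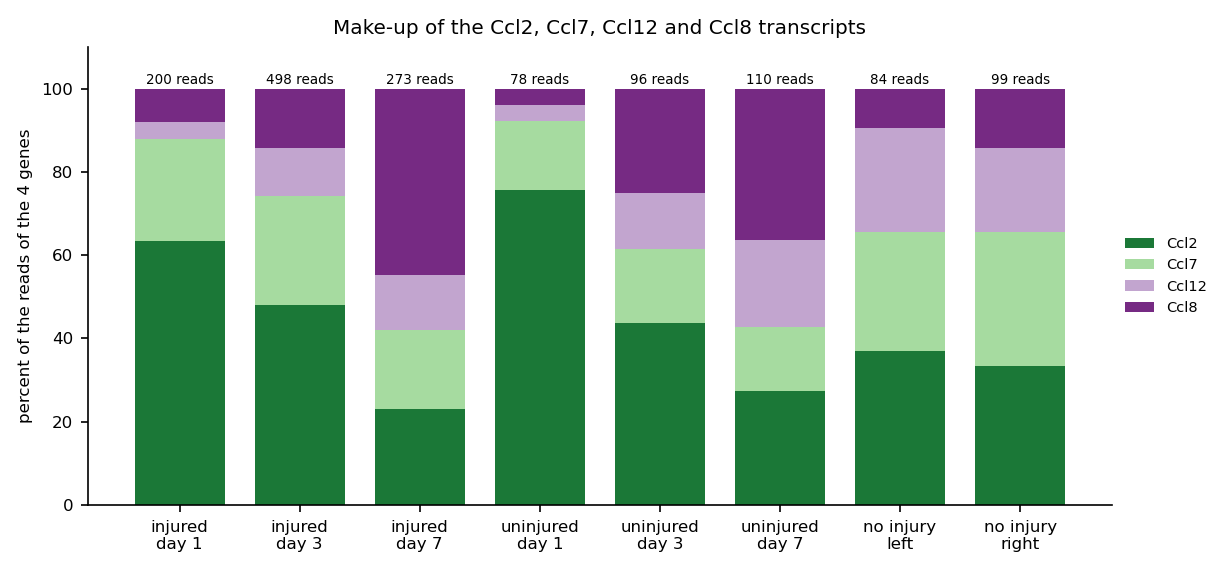
Share (%) of the reads of Ccl2, Ccl7, Ccl12 and Ccl8 together that each gene holds in every library, as stacked bars from 0 to 100. From day 1 to day 7 the Ccl2 share falls and the Ccl8 share grows on both sides, with a Ccl8 share of 44.7% on the injured side at day 7.

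The calls differed in how far they rested on single pools. Ccl2 and Ccl7 stayed past the threshold without the pool of day 1, of day 3, of day 7 or the pool labelled no injury. Without the day 7 pool Ccl8 had log2 1.81 (edgeR adjusted p = 0.0796), Ccl9 1.87 (edgeR adjusted p = 0.117) and Ccl12 1.91 (edgeR adjusted p = 0.0636). Each of these is larger than with all pools and loses its call in the smaller fit. Without the day 3 pool Ccl12 dropped to log2 0.87 (edgeR adjusted p = 0.25).

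Without the pool labelled no injury, Ccl9 (edgeR adjusted p = 0.0620) and Ccl12 (edgeR adjusted p = 0.0820) lost the call with log2 values of 1.74 and 1.37. Keeping the sides of a pool together mattered for 3 genes. With no block for the pool, Ccl8 had log2 1.97 (edgeR adjusted p = 0.0977) and Ccl12 1.07 (edgeR adjusted p = 0.257), while Ccl6 passed at log2 1.62 (edgeR adjusted p = 0.0450). DESeq2 called Ccl6 (adjusted p = 0.00556) and not Ccl12 (adjusted p = 0.0974), and with no filter on low counts Ccl9 lost its call (edgeR adjusted p = 0.126). Injury was always on the left, and with a term for side, set by 1 pool, none of the members was called.

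**Figure D4:**
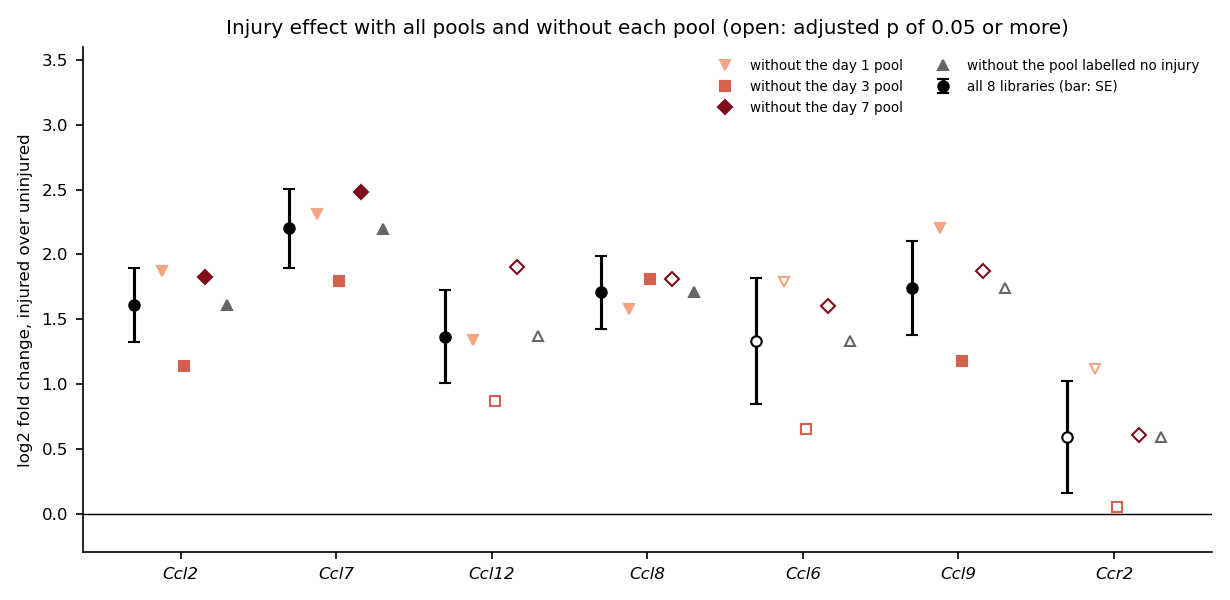
Fitted log2 fold change of the injured over the uninjured side (vertical axis) for the 7 tested members, with all libraries (black, bars SE) and without each pool (coloured). Filled points have an adjusted p under 0.05: all 5 are filled for Ccl2 and Ccl7, and none for Ccl6 and Ccr2.

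A second question was whether the side difference itself differed between the later days and day 1. Set as days 3 and 7 against day 1, no member passed in edgeR (0.542% of the 16244 genes tested were called higher and 0.529% lower). Of the members 1, Ccr2, had an unadjusted p under 0.05, in edgeR as in DESeq2, which also called none. Ccr2 had a log2 difference of 1.60 ± 0.55 (SE; edgeR adjusted p = 0.289), Ccl9 of 1.24 ± 0.53 (SE; edgeR adjusted p = 0.373) and Ccl6 of 1.23 ± 1.04 (SE; edgeR adjusted p = 0.721). Ccl8 had the lowest value of the 7, -0.88 ± 0.79 (SE; edgeR adjusted p = 0.700).

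Values for 3 genes were larger without the day 7 pool. With day 3 alone set against day 1, each from 1 pool, Ccr2 had log2 2.23 (edgeR adjusted p = 0.00238), Ccl6 2.18 (edgeR adjusted p = 0.00548) and Ccl9 1.88 (edgeR adjusted p = 0.00238). The only residual in that fit is the left to right difference of the pool labelled no injury, so these p-values hold no replicate of either day. For these genes, and for Ccl2, day 1 was the highest value of the uninjured side, in the library that also held 585 CPM of neutrophil and marrow transcripts. The part of that library's cell content in their side ratios was not tested.

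The third comparison set the uninjured side of operated mice against the pool labelled no injury, the sides of which were summed to 1 sample. Of the 8 members tested none was called by edgeR or DESeq2, and none had an unadjusted p under 0.05 in either (background 0.125% higher and 0.155% lower of 16747 genes). Ccl7 had a negative difference (log2 -0.83 ± 0.41, SE; edgeR adjusted p = 0.640) and Ccl2 a positive one (log2 0.45 ± 0.42, SE; edgeR adjusted p = 0.857), and neither passed. Ccr2 was at log2 -0.04 ± 0.53 (SE; edgeR adjusted p = 0.996). Without the day 1 pool Ccl8 passed (log2 1.53 ± 0.49, SE; edgeR adjusted p = 0.0343). Sex, surgery and pool cannot be told apart here, and the uninjured libraries also serve in the injury comparison.

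The injured side was also set directly against the pool without injury. Fitted against these 2 libraries alone, Ccl2 was at log2 2.17 (edgeR adjusted p = 0.0834), Ccl8 at 2.66 (edgeR adjusted p = 0.124) and Ccl9 at 2.36 (edgeR adjusted p = 0.0582). Ccl7 was at 1.48 (edgeR adjusted p = 0.127) and Ccl12 at 0.72 (edgeR adjusted p = 0.547). No member passed in that fit, which compares different mice. It counts the left and right libraries of 1 pool as separate samples although they share their mice, and sex, surgery and injury cannot be told apart in it.

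Other ligands of the family were read the same way. Of 15 other CC ligands 7 could be tested and edgeR called none, 1 of them (Ccl1) having an unadjusted p under 0.05, while DESeq2 called Ccl11. They had a median log2 difference of -0.32 against 0.02 over all genes tested. Ccl21a, Ccl21b, Ccl21c and Ccl26 had no read in any library. Ccl11, the eotaxin gene at chr11:82057823-82062955 between Ccl7 and Ccl12, had 4.93, 23.5 and 11.3 CPM in injured ganglia (days 1, 3 and 7), against 4.23, 4.91 and 8.76 CPM on the uninjured side and 11.3 and 10.3 CPM without injury. It shared the day 3 peak of its neighbours, at 4.79-fold, but at days 1 and 7 the injured side did not exceed the range without injury. The fitted difference was log2 0.97 ± 0.42 (SE; edgeR adjusted p = 0.179), and DESeq2 gave 0.93 (adjusted p = 0.0393). Without the day 3 pool it was 0.31 (edgeR adjusted p = 0.203).

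Ccr1, a receptor of Ccl6 and Ccl9, had 2.10, 9.08 and 4.78 CPM on the injured side, against 4.32, 1.36 and 2.31 CPM on the uninjured side and 1.98 and 1.20 CPM without injury. Like Ccr2 it was lower on the injured side at day 1 and did not pass (log2 0.91 ± 0.73, SE; edgeR adjusted p = 0.438). The value rested on single pools: it was log2 1.85 without the day 1 pool (edgeR adjusted p = 0.0205) and 0.04 without the day 3 pool (edgeR adjusted p = 0.978). Ccr8, the known receptor of mouse Ccl8, had 1 read in all libraries together.

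A list of cytokine and NF-kB signalling genes had calls in 1 direction. Whether these genes act on the chemokines in these ganglia was not tested. Of the 25 genes of this list, which include inhibitors of NF-kB, 23 were tested for the injury effect. On the injured side 11 were higher, against 10.1% of all genes tested, and none lower, with a median log2 difference of 0.52. Il1b was among those not called (log2 0.13 ± 0.37, SE; edgeR adjusted p = 0.842). Jun, a subunit of AP-1, rose by log2 1.03 ± 0.06 (SE; edgeR adjusted p = 0.0005), the interleukin 1 receptor gene Il1r1 by 0.90 ± 0.09 (SE; edgeR adjusted p = 0.00192) and Rela, the NF-kB subunit p65, by 0.52 ± 0.06 (SE; edgeR adjusted p = 0.00278). Downstream of the receptors, 2 of 19 tested signalling genes were higher (Arrb1 and Gnai3) and 3 were lower (Grk2, Plcb3 and Grk3), with a median of 0.04. Over all genes tested 10.1% were called higher and 8.02% lower, and these 2 and 3 signalling genes are too few to set that list apart.

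Markers of monocytes, which carry Ccr2, and of macrophages were measured in the same libraries. The 12 monocyte genes, which include Ccr2, summed to 108, 358 and 165 CPM in injured ganglia (days 1, 3 and 7), against 170, 82.9 and 113 CPM on the uninjured side and 142 and 96.8 CPM without injury. Of these 12, 3 were called higher, against 10.1% of all genes tested, with a median log2 difference of 0.67. Vcan, a matrix proteoglycan of monocytes, rose by log2 0.82 ± 0.15 (SE; edgeR adjusted p = 0.0125) and the lipopolysaccharide co-receptor gene Cd14 by 1.13 ± 0.22 (SE; edgeR adjusted p = 0.0149). Cd14 lost its call without the day 7 pool (edgeR adjusted p = 0.0660) and without the day 3 pool (log2 0.84, edgeR adjusted p = 0.0649).

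The 20 macrophage genes summed to 154, 580 and 541 CPM in injured ganglia (days 1, 3 and 7), against 196, 167 and 271 CPM on the uninjured side and 264 and 190 CPM without injury. All 20 were tested and 5 were called higher, against 10.1% of all genes tested, with a median log2 difference of 1.05. The lowest p was that of the haemoglobin scavenger receptor gene Cd163 (log2 0.98 ± 0.13, SE; edgeR adjusted p = 0.00421), whose call was lost with no block for the pool (edgeR adjusted p = 0.0502). At day 1, in 1 pool, both sums were lower on the injured side, and Ccl2, Ccl7, Ccl8 and Ccl9 were higher there than on the uninjured side. That uninjured library also held 585 CPM of neutrophil and marrow transcripts, and 5 of the 12 monocyte genes and 0 of the macrophage genes were highest in it. The order of changes in chemokines and cells was not tested. Of the 13 neutrophil and marrow genes tested none was called by edgeR or DESeq2 and none had an unadjusted p under 0.05, with a median of -1.02, and 12 of the 14 were highest in the uninjured day 1 library.

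Markers of cells that do not come from blood were measured too. The 6 fibroblast genes summed to 706, 1975 and 1520 CPM in injured ganglia (days 1, 3 and 7), against 481, 665 and 1047 CPM on the uninjured side and 1420 and 1262 CPM without injury. In every operated pool the injured side was the higher one, and the libraries without injury were above the uninjured side. Of these, 3 were called higher, against 10.1% of all genes tested, with a median log2 difference of 1.01. They were Lum at 1.11 ± 0.21 (SE; edgeR adjusted p = 0.0287), Col3a1 at 1.36 ± 0.27 (SE; edgeR adjusted p = 0.0348) and Dcn at 0.57 ± 0.15 (SE; edgeR adjusted p = 0.0470). All 3 lost the call without the day 1 pool, with no block and with no filter on low counts.

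The 7 satellite glia genes summed to 2688, 3510 and 3570 CPM in injured ganglia (days 1, 3 and 7), against 2535, 2752 and 3082 CPM on the uninjured side and 3124 and 3027 CPM without injury. Of these, 3 were called higher, among them Sox10 and Glul, at log2 0.37 and 0.36, and both lost the call without the day 3 or the day 7 pool. Of the 12 sensory neuron genes 5 were called lower, among them Isl1, Pou4f1 and Nefh. Tubb3 (log2 0.31) and Ret (log2 0.24) were positive and did not pass in edgeR, while DESeq2 called these 2 higher and 6 of the list lower. In the other lists 1 of 6 mast cell genes (Cma1) and 1 of 6 endothelial and mural genes (Kdr) were higher, and 1 of 5 lymphocyte genes (Cd79a) was lower. Over all genes tested 10.1% were called higher and 8.02% lower, so 1 call in so short a list says little about a cell type. No Schwann cell or erythroid gene, of 6 each, was called by edgeR, where 1 and 0 had an unadjusted p under 0.05 and DESeq2 called 1 (Egr2) and 0. No gene of the marker lists was at 0 in all libraries. The part of these cells in the chemokine values was not tested.

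**Figure D5:**
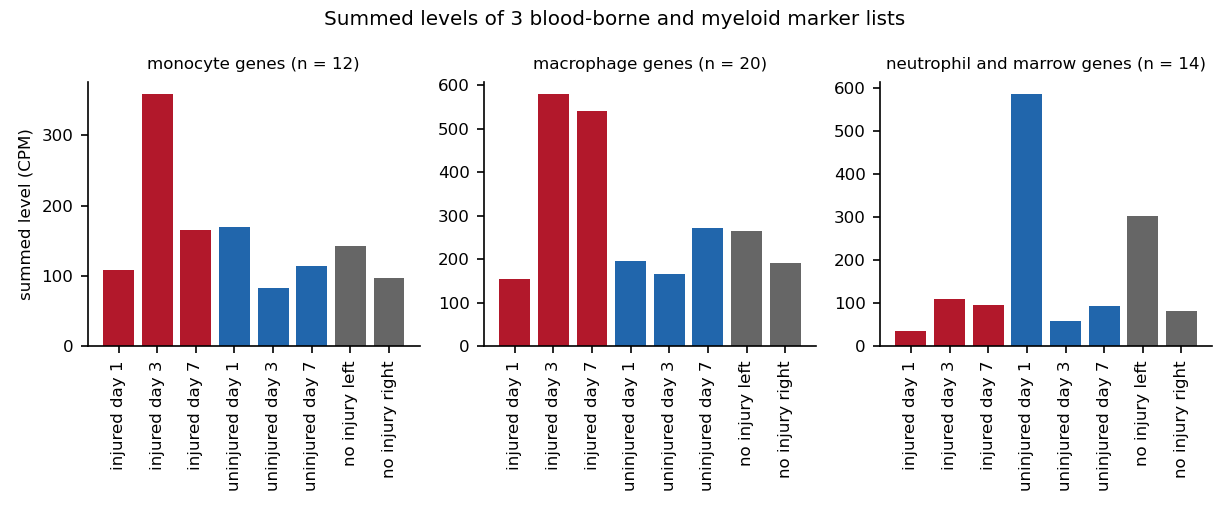
Summed CPM of the monocyte, macrophage, and neutrophil and marrow marker lists in every library (red, injured side; blue, uninjured side; grey, no injury). Macrophage genes reach 580 CPM on the injured side at day 3, and neutrophil and marrow genes 585 CPM on the uninjured side at day 1.

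Across the 8 libraries the members fell into different courses. Pearson's r of log2 (CPM + 0.5) was 0.986 for Ccl2 with Ccl9, 0.975 for Ccl6 with Ccl9, whose promoters are shown above, and 0.834 for Ccl2 with Ccl7. Ccl8 had r = 0.362 with Ccl2, 0.798 with Ccl12 and 0.838 with Ccl3. These values describe 8 libraries from 4 pools, whose sides share their mice, and carry no test.

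Among 13718 protein-coding genes outside the 9 members with a mean of at least 1 CPM, those most like Ccl2 were Shh (r = 0.986), Mmp17 (r = 0.985), Rasip1 (r = 0.982) and Scarb1 (r = 0.978). Shh had 38.2, 50.7 and 27.0 CPM in injured ganglia (days 1, 3 and 7), against 26.6, 24.6 and 23.5 CPM on the uninjured side and 23.0 and 24.2 CPM without injury. Ccl8 was most like Gng4 (r = 0.986), Ddah1 (r = 0.982), Dennd6b (r = 0.981) and Corin (r = 0.975). Corin had 0.683, 3.07 and 4.92 CPM on the injured side, against 0.517, 1.17 and 1.93 CPM on the uninjured side and 0.820 and 0.739 CPM without injury.

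Among the same genes Ccl6 was most like Ace (r = 0.977), Grap (r = 0.971), Oaz2 (r = 0.970) and Tspo (r = 0.963), the last a mitochondrial protein gene raised in many reactive cells. Ccr2 was most like Cdk2 (r = 0.987), Spi1 (r = 0.985), Cd300a (r = 0.978) and Fes (r = 0.978). Spi1 encodes PU.1, the transcription factor of the myeloid line, and Cd300a and Fes are also expressed in myeloid cells. Spi1 had 2.68, 5.25 and 5.26 CPM on the injured side, against 4.41, 1.22 and 2.73 CPM on the uninjured side and 3.47 and 2.45 CPM without injury, so it too was lower on the injured side at day 1.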

How the data were processed

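RNA of 8 pooled libraries of mouse dorsal root ganglia was used. The authors deposited whole-number read counts per Ensembl gene, used as deposited. All columns of the table were used. The submitters' processing notes list STAR 2.5.4a, cutadapt 1.16, DESeq2 and featureCounts 1.6.3, with the build GRCm38 and no account of what each did. Not given in the sources used here are the strand setting, the treatment of reads that match several genes, and the annotation. Names and positions came from GENCODE M21, which matched 53706 of 53801 gene IDs.

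CPM used all counted reads, and RPKM the joined exon length. Tests were run in edgeR 4.0.16 under R 4.3.3 with TMM factors and the robust quasi-likelihood F test, on genes kept by filterByExpr at a count minimum of 10, with Benjamini-Hochberg adjustment over all genes tested. The injury effect had the pool as a block (3 residual degrees of freedom), and the time and no injury comparisons had 2. The labels name separate pools but give 1 library per side and day. The block follows from the design text, in which each mouse is its own control; deviations of the sides correlated by 0.249, -0.0618 and 0.356 in the pools of days 1, 3 and 7. No pair of libraries agreed within sampling noise. Alternatives included DESeq2 1.42.0, no filter, no block and leaving out each pool. Scripts were tested on simulated data.

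The members, gene lists and tests were chosen with earlier results of these data known. Named genes are the members, other family members that were called, up to 3 genes per list with the lowest p, and the 4 genes most correlated with each of Ccl2, Ccl8, Ccl6 and Ccr2. Ccl11, Ccr1, Ccr8, the genes at 0, the signalling genes, further called marker genes, the fourth promoter, the promoter alignment, the TATAAA search and what the closing section names were picked with their values in view. Local alignment scored 2 per match, -3 per mismatch, -5 to open a gap and -2 to extend it. Protein sequences were not used here, and some of the planned results are not reported here.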

Additional observations from a re-analysis of the deposited data

Results flagged for a closer look

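The side ratios of 2 receptors had opposite directions in different pools. Ccr1 stood at 0.486 of the uninjured side at day 1 (exact binomial 95% interval 0.330 to 0.705), against 6.70-fold at day 3 and 2.07-fold at day 7. Ccr2 stood at 0.701 at day 1, against 3.46-fold at day 3 and 1.48-fold at day 7. The later days set against day 1 gave log2 2.86 ± 0.72 (SE; edgeR adjusted p = 0.134) for Ccr1 and 1.60 ± 0.55 (SE; edgeR adjusted p = 0.289) for Ccr2, and neither passed. The uninjured day 1 library had the highest summed level of neutrophil and marrow genes (585 CPM), and its part in these ratios was not tested.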

How the results depend on the processing

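Depth limits Ccl3, Ccl4, Ccl8 and Ccl12, whose lowest libraries held under 10 reads. The fitted injury effect was positive for the 7 tested members under all 10 alternatives. All 25 side ratios moved by less than their counting interval with TMM-scaled totals, a scaling chosen after seeing the data.

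For the injury effect, 1644 genes were higher and 1302 lower. Leaving out 1 operated pool gave 475 to 2382 higher and 156 to 2287 lower, with 2 to 5 members called against 5. Without the pool labelled no injury there were 763 and 449 (3 members), with a side term 6 and 0 (0 members), and against that pool alone 703 and 442 (0 members), where Dcn reversed to -0.33. With no replicate block there were 1558 and 1344 (4 members). Fewer samples enter the fits without a pool; otherwise the cause was not tested.

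For the later days against day 1, 88 genes were higher and 86 lower. With no filter there were 447 and 465, with a trend on log2 day 0 and 0, and without 1 pool 281 to 644 and 238 to 570, with 0 to 3 members higher. Without the day 3 and without the day 7 pool the log2 values were -0.11 and 1.29 for Ccl2, -0.37 and 0.92 for Ccl7 and -0.81 and 0.63 for Ccl12, against 0.69, 0.32 and -0.12 with all pools. With the trend Ccl7 reversed to -0.11.

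For the uninjured side against no injury, 21 genes were higher and 26 lower. DESeq2 called 85 and 80, no filter 276 and 422, left and right as separate samples 188 and 184, and leaving out 1 pool 13 to 447 and 3 to 507, with 0 to 1 member higher. Ccr2 ran between -0.33 without the day 1 pool and 0.25 without the day 3 pool. The cause was not tested.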

Other observations

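Some scarcer chemokines had counts that stood apart between libraries. Ccl1, a ligand of Ccr8, had 7, 2 and 1 reads in injured ganglia (days 1, 3 and 7), against 8, 14 and 14 reads on the uninjured side and 9 and 16 reads without injury. The fitted difference was log2 -1.81 ± 0.67 and did not pass (SE; edgeR adjusted p = 0.0987). Ccl5, made by T cells among others, had 0, 7 and 14 reads on the injured side, against 11, 3 and 12 reads on the uninjured side. Ccl28, a mucosal chemokine, had 12, 12 and 22 reads on the uninjured side of operated mice, against 44 and 60 reads in the pool labelled no injury (log2 -1.76 ± 0.42, SE; edgeR adjusted p = 0.226).

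Ackr1, the atypical receptor that binds many chemokines on venules and red cells, was the most abundant gene of the family. It had 95.2, 98.3 and 98.6 CPM on the injured side, against 90.3, 94.9 and 90.7 CPM on the uninjured side and 74.2 and 85.0 CPM without injury. The side difference was small and did not pass (log2 0.08 ± 0.07, SE; edgeR adjusted p = 0.450).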
